A study of Rattus with 6 samples.

Results

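The transcripts of 10 enzymes that remove superoxide and peroxides were followed in rat BMSCs, the mesenchymal stem cells of marrow, from which bone-, cartilage- and fat-forming cells arise. They encode 5 glutathione peroxidases (Gpx1, Gpx3, Gpx4, Gpx7 and Gpx8), 3 superoxide dismutases (Sod1, Sod2 and Sod3), catalase (Cat) and the peroxiredoxin Prdx1. Members were taken by gene symbol from a list of enzymes, with no threshold on their values but with earlier results of these data known. All 10 were found among the 30211 genes of the count table. RNA was sequenced from 3 control libraries and from 3 libraries of cells that had received dexamethasone, a synthetic glucocorticoid, at 100 uM, and all 6 were collected on day 4. The labels give the genotype of all 6 as WT, and tag all 6 with the treatment DEX, so groups were taken from the sample titles. The sources used here do not give the strain, age or sex of the animals, nor the vehicle of the controls. No label states whether replicates came from different animals or cultures. The p-values therefore measure only the spread between these libraries, which may be technical.

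Superoxide, a by-product of respiration and of oxidases, is converted to hydrogen peroxide by superoxide dismutases, which differ in metal and place. Sod1 is the copper and zinc enzyme of the cytosol, Sod2 the manganese enzyme of the mitochondrial matrix, and Sod3 the copper and zinc enzyme secreted to the cell surface and matrix. Hydrogen peroxide is then removed by catalase in peroxisomes, by peroxiredoxins and by glutathione peroxidases. Most peroxiredoxins draw on thioredoxin, and many glutathione peroxidases on glutathione. Gpx1, Gpx3 and Gpx4 carry selenocysteine at the active site, while Gpx7 and Gpx8 carry cysteine and sit in the endoplasmic reticulum. Marrow stromal cells lay down and fold much collagen, a process that releases peroxide in that compartment.

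With dexamethasone, 4 of the 10 transcripts rose and 5 fell, and both the glutathione peroxidases and the superoxide dismutases held genes that rose and genes that fell. Gpx3 rose 54.4-fold, Gpx7 1.78-fold, Sod1 1.61-fold and Prdx1 1.18-fold. Sod3 fell to 0.379 of its control level, Sod2 to 0.630, Cat to 0.688, Gpx4 to 0.778 and Gpx8 to 0.875. Gpx1 did not pass. A gene was called where edgeR's quasi-likelihood test gave a Benjamini-Hochberg adjusted p under 0.05 over the 14111 genes tested. Of all tested genes 64.0% were called, 32.3% higher and 31.7% lower, so a count of 9 called among 10 is read against a background in which most genes were called. The 2 groups did not overlap for 9 of the 10 members and for 66.9% of tested genes. The median size of the log2 fold change, its sign ignored, was 0.60 over the members and 0.31 over all tested genes, and the signed medians were -0.11 and near 0 (-0.00019). The members were chosen with earlier results of these data known, so this contrast cannot show that they respond more than other genes.

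Library totals ranged from 34835072 to 41676315 counts, and each member had at least 411 counts summed over a group. Levels below are in CPM, the count scaled to library size with TMM factors, and errors are SD over 3 libraries unless an SE is named. The spread between replicates was small, with coefficients of variation of 0.524% to 9.52% for the members, the highest being Gpx3 in controls. Replicates correlated at 0.994 or above (Pearson's r of log2 CPM across genes, which are not independent replicates). Fkbp5, Tsc22d3 and Per1, established glucocorticoid-induced genes, were higher in 3 of 3 dexamethasone libraries, by 4.30, 2.88 and 1.63 on the log2 scale.

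**Figure D1:**
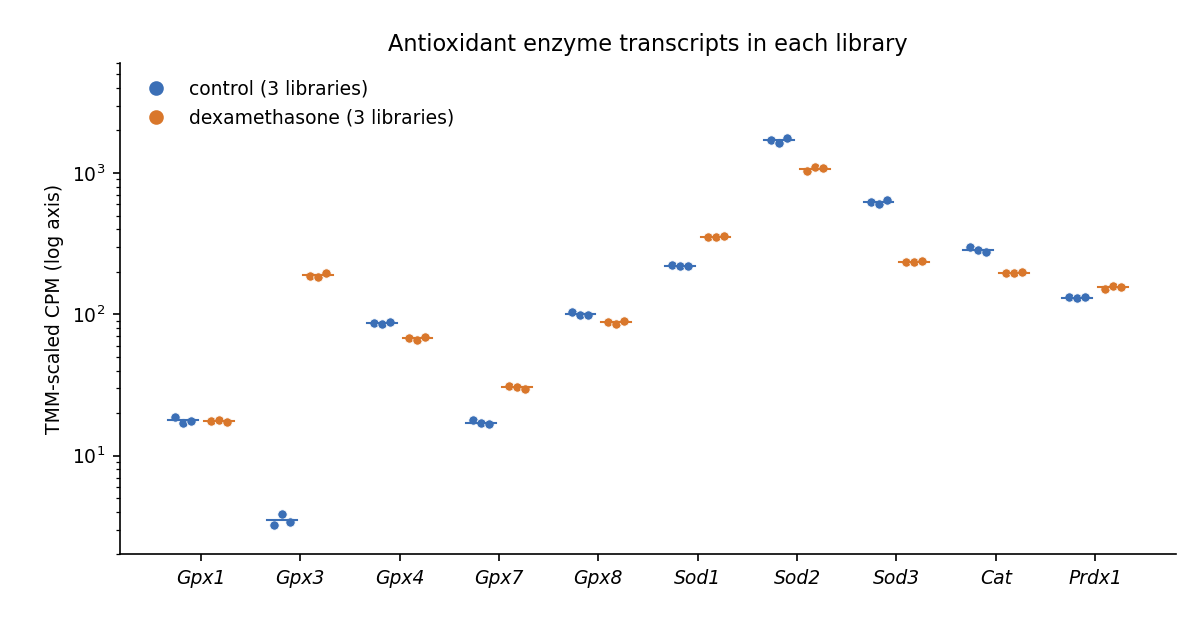
TMM-scaled CPM (log axis) of the 10 enzyme transcripts in each of the 3 control (blue) and 3 dexamethasone (orange) libraries, with a bar at each group mean. Gpx3 goes from the lowest group mean on the plot, 3.48 CPM, to 189 CPM, the points of Gpx1 overlap between groups, and those of the other 8 genes do not.

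Gpx3 encodes the secreted glutathione peroxidase of plasma and extracellular fluid. It lies on chromosome 10 (40247436 to 40255422, plus strand, 6 exon blocks), in the coordinates of the deposited table, whose rat build the sources used here do not name. Its controls had 3.22, 3.85 and 3.37 CPM (124, 152 and 135 counts) and its dexamethasone libraries 187, 184 and 197 CPM. All 3 dexamethasone values lay far above all 3 controls. The log2 fold change was 5.76 ± 0.082 (SE; 95% interval 5.65 to 5.88; adjusted p = 1.5e-49, edgeR's quasi-likelihood test). That interval comes from the fit over all genes and is narrower than the SE of these libraries would give. Of 14111 tested genes, 42 had a higher log2 fold change.

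Gpx1 encodes the cytosolic and mitochondrial selenoenzyme that is usually regarded as the main intracellular glutathione peroxidase (chromosome 8, 117117430 to 117118522, plus strand, 3 exon blocks). Its values were 18.7, 17.1 and 17.6 CPM in controls and 17.5, 17.9 and 17.2 CPM with dexamethasone, and the groups overlapped. The log2 fold change was -0.02 (95% interval -0.16 to 0.12; adjusted p = 0.815, edgeR's quasi-likelihood test), an interval that leaves out changes of 1.5-fold in either direction. The sign changed when counts were scaled by library size alone (log2 0.017).

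Gpx4 encodes the enzyme that reduces lipid hydroperoxides within membranes and restrains ferroptosis (chromosome 7, 12516352 to 12519154, minus strand, 7 exon blocks). It fell from 86.6, 85.3 and 88.6 CPM to 67.8, 66.1 and 68.6 CPM, with no overlap (log2 -0.36 ± 0.022, SE; adjusted p = 1.1e-11, edgeR's quasi-likelihood test). This value is uncertain, because 1582 of the 1762 exon bases of Gpx4 (89.8%) lie within exons of Sbno2 on the opposite strand, and the sources used here do not state the strand setting of the counting. Without strand, reads of the 2 genes over those bases cannot be told apart. Sbno2, a transcriptional coregulator, fell as well, from 194 ± 5.67 to 141 ± 0.792 CPM (log2 -0.46). The rat RefSeq gene table (assembly GRCr8) also names 4 Gpx4 pseudogenes, so some reads may have been assigned elsewhere or dropped. No exon of the other 9 members overlapped another gene of the table.

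Gpx7 and Gpx8, the peroxidases of the endoplasmic reticulum, moved apart. Gpx7 (chromosome 5, 128001761 to 128009735, minus strand, 3 exon blocks) rose from 17.8, 16.9 and 16.7 CPM to 31.1, 30.8 and 29.7 CPM (log2 0.83 ± 0.034, SE). Gpx8, which is anchored in the membrane of that compartment (chromosome 2, 44903337 to 44907030, minus strand, 3 exon blocks), fell from 104, 99.001 and 98.6 CPM to 87.8, 85.9 and 89.9 CPM (log2 -0.19 ± 0.031, SE). Neither gene's groups overlapped, and adjusted p was 3.8e-16 for Gpx7 and 6.5e-06 for Gpx8 (edgeR's quasi-likelihood test). Per kilobase of exon, the level of Gpx7 was 0.156 ± 0.00072 of that of Gpx8 in controls and 0.317 ± 0.014 with dexamethasone. Gpx8 nevertheless stayed the higher of both in 6 of 6 libraries.

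The 3 superoxide dismutases did not change alike. Sod1 (chromosome 11, 30363280 to 30368862, plus strand, 5 exon blocks) rose from 223, 218 and 220 CPM to 350, 355 and 359 CPM (log2 0.69 ± 0.015, SE; adjusted p = 3.0e-25, edgeR's quasi-likelihood test). Sod2 (chromosome 1, 47914759 to 47921587, minus strand, 5 exon blocks) had the most counts of any member. It fell from 1725, 1626 and 1762 CPM to 1025, 1110 and 1084 CPM (log2 -0.67 ± 0.048, SE; adjusted p = 4.7e-18, edgeR's quasi-likelihood test). Sod3 (chromosome 14, 60958592 to 60964324, minus strand, 2 exon blocks) showed the largest fall of the 10, from 621, 607 and 643 CPM to 236, 235 and 237 CPM. Its log2 fold change was -1.40 ± 0.025 (SE; 95% interval -1.46 to -1.34; adjusted p = 2.8e-37, edgeR's quasi-likelihood test), and 660 of 14111 tested genes had a lower one. In each of these 3 genes the groups stood apart with no overlap.

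Both secreted enzymes of the set were thus among those that changed most, in opposite directions. Per kilobase of exon, the level of Gpx3 was 0.0066 ± 0.00077 of that of Sod3 in controls and 0.944 ± 0.029 with dexamethasone. These cells are a bulk sample, in which fewer cells of a type and less RNA per cell cannot be told apart.

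Cat encodes the haem enzyme of peroxisomes that breaks hydrogen peroxide down without a reductant (chromosome 3, 93379874 to 93412058, minus strand, 13 exon blocks). It fell from 299, 284 and 274 CPM to 195, 196 and 199 CPM (log2 -0.54 ± 0.037, SE; adjusted p = 5.6e-20, edgeR's quasi-likelihood test). All 3 dexamethasone libraries lay below all 3 controls. Prdx1 encodes a cytosolic peroxiredoxin, which reduces peroxide through a reactive cysteine (chromosome 5, 135536413 to 135551990, plus strand, 6 exon blocks). It rose from 132, 129 and 132 CPM to 151, 158 and 156 CPM (log2 0.24 ± 0.021, SE; adjusted p = 6.5e-09, edgeR's quasi-likelihood test), the smallest of the 4 rises. The gene table names 7 Prdx1 pseudogenes and 1 Prdx1-like gene. That like gene, AABR07012795.1 in the count table, held 26 to 54 counts a library, against 5095 to 6387 for Prdx1, and summing both left the log2 fold change at 0.24. Single pseudogenes are also named for Gpx8 and Sod2, and the sources used here do not state whether reads shared between copies were counted.

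**Figure D2:**
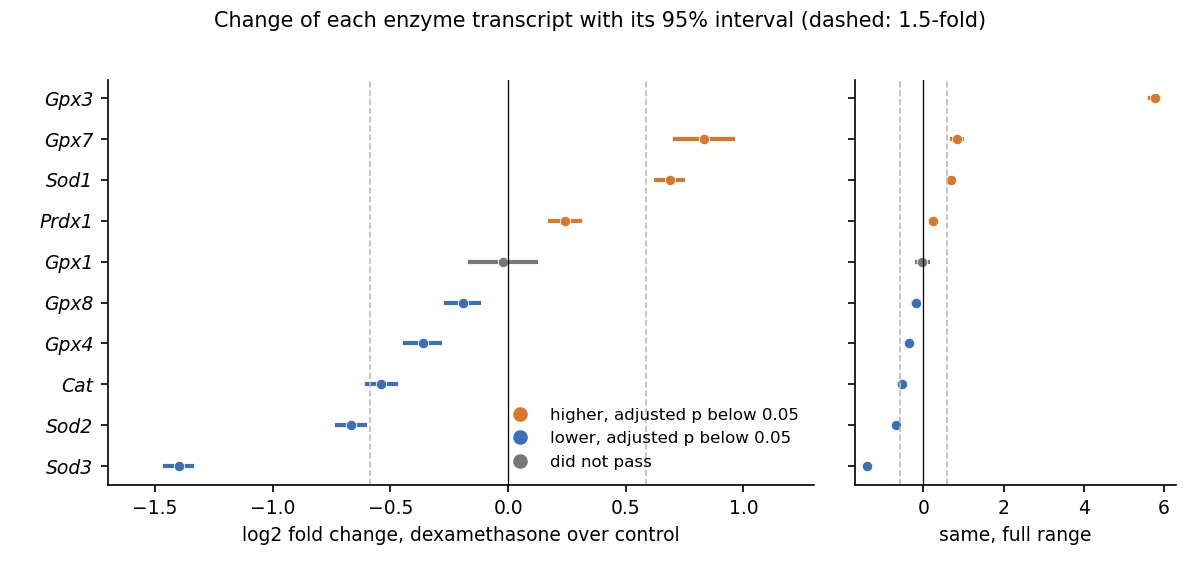
Log2 fold change (dexamethasone over control) of each transcript with its 95% interval, in a narrow range at left, which does not reach Gpx3, and over the full range at right; orange is higher, blue lower, grey did not pass, and dashed lines mark 1.5-fold. Gpx3 stands at 5.76 while the other 9 lie between -1.40 and 0.83.

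Because replicates were so close, small changes passed. Tested against a fold change of 1.5, 5 members passed, namely Gpx3, Gpx7, Sod1, Sod2 and Sod3, where 20% of tested genes did. The same 5 passed with the biological coefficient of variation set to 0.2 in place of the estimated 3.66%, where 26.2% of tested genes did. Cat, Gpx4, Gpx8 and Prdx1 passed neither, with an adjusted p of 0.0789, 0.301, 0.646 and 0.542 at the set coefficient (edgeR's likelihood ratio test) and of 1 for all 4 against 1.5-fold.

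Levels of different genes were compared per kilobase of the exon length in the table. In controls the order was Sod2, Sod3, Sod1, Prdx1, Cat, Gpx8, Gpx4, Gpx1, Gpx7 and Gpx3, from 826 ± 33.9 to 2.37 ± 0.226 CPM per kilobase, and no neighbours in it overlapped. With dexamethasone it was Sod1, Sod2, Prdx1, Sod3, Gpx3, Gpx8, Cat, Gpx4, Gpx7 and Gpx1, from 541 ± 7.10 to 20.1 ± 0.392 CPM per kilobase. Of these neighbours, Sod1 and Sod2 (520 ± 21.0 CPM per kilobase) overlapped between libraries and the others did not. The place of Gpx4 in both orders is uncertain, since 89.8% of its exon bases lie within exons of Sbno2. Gpx3 moved from the tenth place to the fifth, and its level exceeded that of 28.9% of tested genes in controls and 95.3% with dexamethasone. Gpx1 moved from the eighth to the tenth although its own level did not pass the test.

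Within families, the make-up of the summed transcript level changed. Gpx8 held 52.2% ± 0.534 of the summed glutathione peroxidase level per kilobase in controls and 27.9% ± 0.072 with dexamethasone, while Gpx3 went from 1.31% ± 0.149 to 43.5% ± 0.670. The sum of the 5 genes rose from 181 ± 4.01 to 296 ± 6.24 CPM per kilobase. Leaving out the uncertain Gpx4, an alternative chosen after seeing the data, gave Gpx3 a share of 1.80% in controls and 49.99% with dexamethasone. In the superoxide dismutase sum, Sod2 held 54.2% ± 0.600 in controls and 43.4% ± 0.842 with dexamethasone, Sod1 22.1% ± 0.568 and 45.2% ± 0.583, and Sod3 23.7% ± 0.258 and 11.4% ± 0.268. That sum went from 1522 ± 45.9 to 1197 ± 26.6 CPM per kilobase. No test was run on shares or sums.

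**Figure D3:**
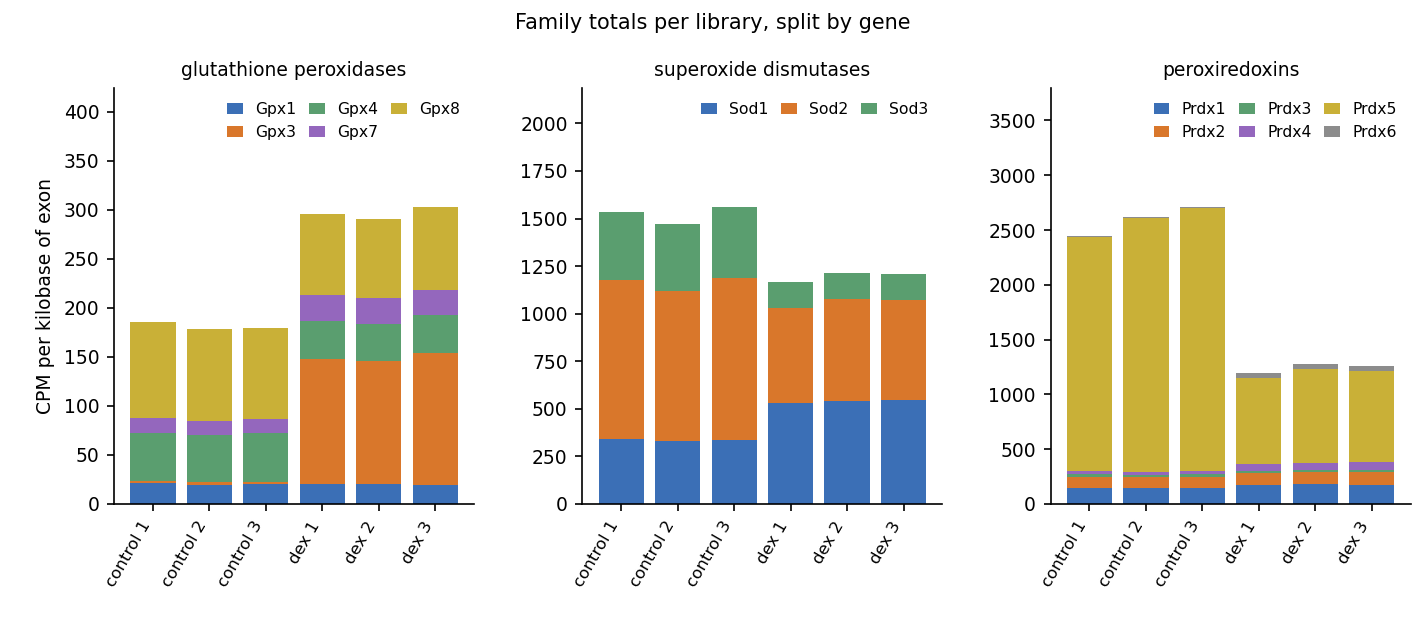
Stacked bars of the length-scaled level (CPM per kilobase of exon) of each family in each library, split by gene; dex is dexamethasone, and each vertical axis has its own scale from 0. The glutathione peroxidase sum is near 181 in controls and 296 with dexamethasone, where Gpx3 makes up 43.5%, and the peroxiredoxin sum, most of it Prdx5, goes from 2591 to 1246.

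The ratio of Sod2 to Sod1 per kilobase was 2.46, 2.37 and 2.55 in controls and 0.932, 0.994 and 0.960 with dexamethasone. Per kilobase, mitochondrial Sod2 was therefore above Sod1 in 3 of 3 controls and below it in 3 of 3 dexamethasone libraries. The switch rests on the length scaling, since in CPM Sod2 stayed above Sod1 with dexamethasone (1073 ± 43.4 against 355 ± 4.66 CPM), and its share of the unscaled sum was 66.9% in controls and 64.5% with dexamethasone. The ratio of Sod3 to Sod1 went from 1.07 ± 0.032 to 0.253 ± 0.0030. Sod2 and Cat, which both fell, kept closer, with a ratio of 7.35 ± 0.482 in controls and 6.72 ± 0.244 with dexamethasone. The ratio of Gpx3 to Gpx1 went from 0.117 ± 0.016 to 6.42 ± 0.352. Over the 6 ratios computed here, the 2-sided exact permutation p was 0.1 for each, and 0.1 adjusted over the 6, which is the smallest that 3 libraries against 3 can give.

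Members of the same families outside the set were examined from lists of redox genes. Over all tested genes 64.0% were called, 32.3% higher and 31.7% lower, and each list count here and below is read against those shares. No set test was run on any list. Gpx2, the gut glutathione peroxidase, had 8 counts over the 6 libraries, and Gpx5 and Gpx6, of epididymis and olfactory tissue, had 0, so none of these 3 was tested. A count of 0 allows up to 3 read pairs, or 6 counts, in a library, and covers counting error only. Among 5 tested peroxiredoxins besides Prdx1, 3 rose (Prdx2, Prdx4 and Prdx6) and 2 fell (Prdx3 and Prdx5). Prdx6, which also reduces phospholipid peroxides, rose from 13.9 ± 0.690 to 98.6 ± 0.691 CPM (log2 2.82), and 3 copies of it are named in the gene table. Prdx5, found in mitochondria, peroxisomes and cytosol, fell from 1743, 1893 and 1960 CPM to 636, 696 and 679 CPM (log2 -1.48 ± 0.064, SE; adjusted p = 4.1e-09, edgeR's quasi-likelihood test). It made up 88.2% ± 0.699 of the summed level of Prdx1 to Prdx6 per kilobase in controls and 65.9% ± 0.838 with dexamethasone. Prdx1 made up 5.70% ± 0.333 and 14.0% ± 0.184 of that sum.

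Genes that supply or recycle glutathione moved both ways, with 5 up, 4 down and 3 not passing of 12 tested (median log2 fold change 0.14). Glrx, the glutaredoxin that removes glutathione from protein thiols, rose from 20.8 ± 1.26 to 184 ± 6.65 CPM (log2 3.14), with 10 copies named in the gene table. Slc7a11, the cystine importer that feeds glutathione synthesis, fell from 94.3 ± 4.90 to 5.99 ± 0.401 CPM (log2 -3.98). Also among the 5 that rose were Gclc and Gss, which build glutathione, Gsr, which recycles it, and Idh1, a source of NADPH. Chac1, which degrades glutathione, fell by 3.15 on the log2 scale, and Ggct, a cyclotransferase of the same cycle, by 0.15. Of 6 tested genes of the thioredoxin system, which serves Prdx1, 2 rose (Txn1 and Txnip), 3 fell (Txnrd1, Txnrd2 and Txnrd3) and Txn2 did not pass. Txnip, a thioredoxin-binding inhibitor, rose from 2.52 ± 0.336 to 29.1 ± 1.70 CPM. Txnrd1, the cytosolic thioredoxin reductase and the highest of that list, fell from 536 ± 4.88 to 379 ± 4.07 CPM, and Txnrd3 fell by 0.79 on the log2 scale.

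Of 11 tested genes whose products make superoxide or peroxide, 6 rose, 2 fell and 3 did not pass (median log2 fold change 0.67, against near 0 over all tested genes). Of all tested genes 64.0% were called, and whether this list differs from other genes was not tested. Those that rose included Xdh, Aox1, Nox1, Ero1a and Maoa, and those that fell were Cyba and Ero1b. Of the 2573 exon bases of Nox1, 414 (16.1%) lie within exons of Cstf2 on the opposite strand. Reads over those bases carry the doubt stated for Gpx4. Xdh, xanthine dehydrogenase, rose from 302 ± 9.95 to 804 ± 3.27 CPM and Aox1, an aldehyde oxidase, from 28.2 ± 1.33 to 524 ± 3.52 CPM. Cyba, the p22phox subunit that NADPH oxidases share, fell from 86.6 ± 3.09 to 32.8 ± 2.21 CPM. The other 6 genes of that list found in the table, which include the phagocyte subunits Cybb and Ncf1, were too low to test. Cybb had 56 counts in all and Ncf1 41.

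Other lists held genes that serve the cofactors of these enzymes. Of 9 tested genes of selenium transport and incorporation, 4 rose, 2 fell and 3 did not pass (median log2 fold change 0.08). The 4 became 2 without control replicate 2 or control replicate 3, and the 2 became 1 without dexamethasone replicate 2. Selenop, the secreted selenium carrier, rose from 0.646 ± 0.314 to 13.3 ± 1.48 CPM (log2 4.36 ± 0.45, SE), and its receptor Lrp8 from 43.2 ± 1.07 to 68.7 ± 5.69 CPM. Sepsecs, which makes selenocysteine on its transfer RNA, went from 26.5 ± 0.494 to 23.3 ± 1.84 CPM (log2 -0.18; adjusted p = 0.0105, edgeR's quasi-likelihood test). A further list of selenoproteins, which leaves out those placed in other lists, held 10 tested genes with a median of -0.09. Of these, 2 were higher, 5 lower and 3 without a call, and 1 was higher without dexamethasone replicate 1. Selenos, the highest of them, fell by 0.18 on the log2 scale, Selenom fell by 0.72, and Selenok, with 6 copies named in the gene table, rose by 0.24.

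Of 7 tested genes that supply copper, zinc or manganese, 3 rose, 2 fell and 2 did not pass (median 0.04). Calls of a fall came to 1 without control replicate 1, without dexamethasone replicate 1 or with library size alone. Slc39a14, an importer of zinc and manganese, rose from 138 ± 4.39 to 248 ± 3.91 CPM. Ccs, the chaperone that loads copper into Sod1, fell from 40.6 ± 2.64 to 31.8 ± 0.934 CPM (log2 -0.35), while Sod1 itself rose. Of 16 tested genes of peroxisome import and membrane, the compartment of catalase, 6 rose, 3 fell and 7 did not pass (median 0.04), and 1 fell without dexamethasone replicate 2 or with library size alone. Abcd3, the highest of these, rose by 0.19 on the log2 scale, and Pex3, needed to build the peroxisome membrane, fell by 0.50. None of the 16 passed against a fold of 1.5.

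**Figure D4:**
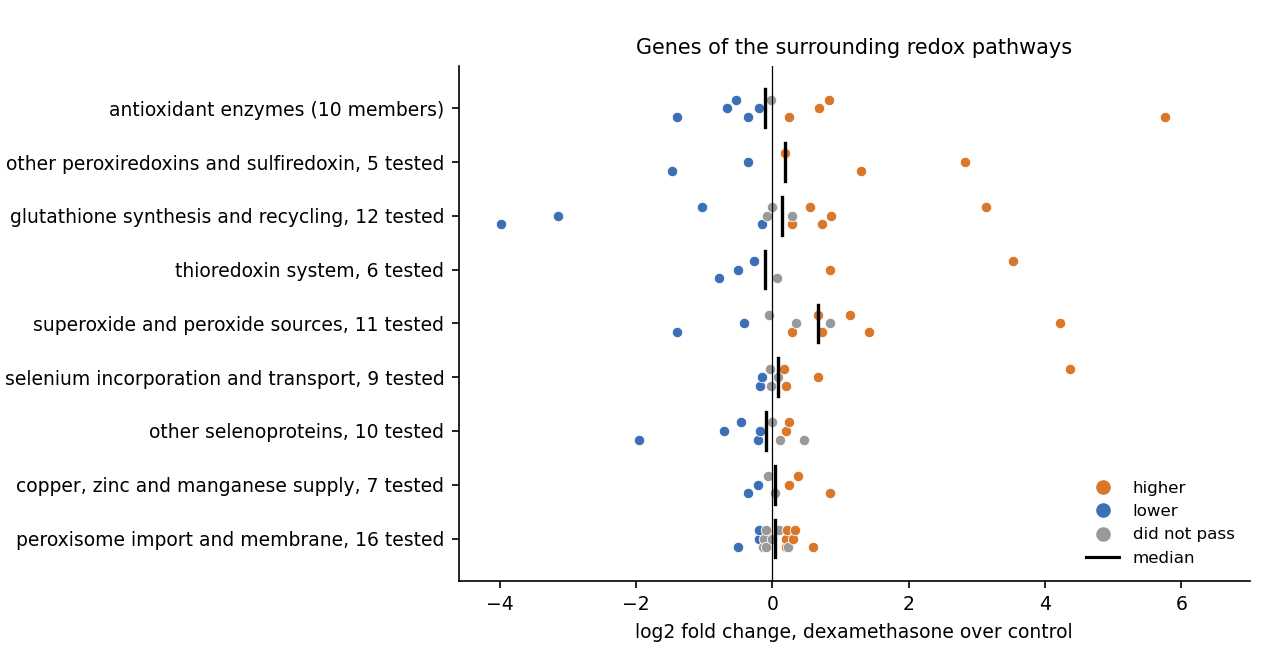
Log2 fold change (dexamethasone over control) of each tested gene in the enzyme set and in 8 lists of related redox genes; orange is higher, blue lower, grey did not pass, and the black bar is the median. Peroxisome genes lie close to 0, and the genes farthest out in the 8 lists are Slc7a11 at -3.98 and Selenop at 4.36.

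The genes whose values over the 6 libraries lay nearest to those of Gpx3 and Sod3 were sought among 7649 genes whose mean level reached 10 CPM. Likeness was the Euclidean distance between centred log2 CPM values, which with 2 groups mostly follows the size of the change. Nearest to Gpx3 were Prodh1, a proline dehydrogenase (distance 0.233, log2 fold change 5.90), Kng1, a kininogen (0.366, 5.68), and Il1rn, the interleukin-1 receptor antagonist (0.567, 5.59). Nearest to Sod3 were Arhgap22, a GTPase-activating protein (0.0499, -1.37), Epha2, an ephrin receptor (0.0806, -1.46), and Tsc22d1, a transcriptional regulator (0.0831, -1.38).

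Marker lists were used to check the cells. Of 13 marrow stroma markers, 12 were found and tested, and 4 rose and 7 fell, where 64.0% of all tested genes were called. Their summed level was 3748 to 3800 CPM in controls and 2547 to 2570 CPM with dexamethasone. Among the 7 that fell, Prrx1 went from 727 ± 19.2 to 75.6 ± 2.51 CPM and Pdgfrb from 616 ± 11.8 to 137 ± 7.94 CPM. Dcn, also lower, went from 3.64 ± 0.793 to 0.759 ± 0.249 CPM, and Col1a1, the highest of these markers, from 1138 ± 16.4 to 665 ± 8.43 CPM. Among the 4 that rose, Pdgfra went from 598 ± 2.59 to 965 ± 20.2 CPM. Lepr, also higher, was low, at 8 to 12 counts in each control. Cxcl12 rose only 1.05-fold with overlapping groups, and Eng, among those that fell, overlapped as well. The 16 macrophage markers summed to 13.0 to 13.9 CPM in controls and 9.16 to 9.88 CPM with dexamethasone, and 4 of the 7 tested fell. Of these markers 5 were at 0 in all 6 libraries (Cd163, Adgre1, C1qa, C1qb and Tyrobp), and Cd14, at 262 to 328 counts a library, was the highest. Cd14 did not pass (7.27 ± 0.468 CPM in controls and 7.65 ± 0.187 CPM with dexamethasone), nor did Csf1r and Ptprc. Macrophages carry much Sod2 and Cyba, which fell as the other 4 tested markers did, and the part of macrophages in those results was not tested. The 8 erythroid markers found summed to at most 1.06 CPM with Hbb at 0, the 8 granulocyte markers to at most 0.9746 CPM and the 7 lymphocyte markers to at most 0.246 CPM. The 7 endothelial markers found reached at most 2.10 CPM, with Emcn at 0. The 8 adipocyte markers summed to 4.43 to 5.07 CPM in controls and 7.68 to 11.1 CPM with dexamethasone, and of 3 tested, 1 rose and 1 fell. Cebpa rose from 1.73 ± 0.281 to 7.75 ± 1.74 CPM, Lpl fell from 1.62 ± 0.060 to 0.268 ± 0.056 CPM, and Pparg did not pass. Lep was at 0, and Adipoq, Plin1 and Fabp4 were at 6 counts or fewer in each library.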

How the data were processed

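The authors deposited a single table of read counts per gene for 6 libraries, with exon coordinates and exon length, per the file headers. Per the labels' protocols, column-purified total RNA went into a SMARTER mRNA-seq kit. The aligner, counting program, strand setting and handling of reads with several matches were not given in the sources used here. The submitters' processing notes name mm10, a mouse build, whereas the table holds rat symbols and a chromosome 20 with 877 genes, and all 10 members lie on the chromosome that a rat gene table (GRCr8) gives. Coordinates are the table's own. No sequence file was used here.

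Counts were filtered with filterByExpr by group (14111 genes kept), scaled by TMM and fitted over all genes with edgeR 4.0.16 in R 4.3.3 (robust dispersions and quasi-likelihood, control against dexamethasone, no covariate), with Benjamini-Hochberg adjustment and calls below 0.05. SEs come from replicate log2 CPM (prior count 2). The 95% intervals were derived from the log2 fold change and F statistic of the quasi-likelihood fit, so SE and interval need not match. Low counts came mostly in steps of 2 (69.0% to 71.5% even between 1 and 20), so 6 counts were taken as 3 read pairs. Alternatives were DESeq2 1.42.0, limma-voom (limma 3.58.1), other scalings and filters, halved counts, a replicate block and leaving out each library. Scripts were tested on simulated data.

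All 10 members are named. From each list of related genes, apart from a few that are not reported here, came the called genes with the largest rise and the largest fall among those of at least 1 CPM, the highest by CPM, and every gene of a list of 3 or fewer. Members, lists and ratios were chosen with earlier results of these data known. Genes named outside that rule (Cybb, Ncf1, Sbno2, single cell markers and other list genes) were chosen after their values were seen.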

Additional observations from a re-analysis of the deposited data

How the results depend on the processing

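Of the 10 members, Gpx3, Gpx7, Sod1, Sod2 and Sod3 kept their direction and their call under all 15 alternatives, and Cat, Gpx4, Gpx8 and Prdx1 under 13. Against a fold of 1.5 or with the coefficient of variation set to 0.2, those 4 were not called at log2 fold changes of -0.54, -0.36, -0.19 and 0.24, which left 2 falling members. Under the same 2 settings, calls over all genes came to 1549 and 1993 higher and 1278 and 1700 lower. Among the related redox genes pooled with Fkbp5, Tsc22d3 and Per1, 17 and 18 were higher (34 as reported). Lower calls in that pool came to 6 and 8 (23 as reported). Fkbp5, Tsc22d3 and Per1 count among the higher calls each time. These settings ask for a larger change or spread by construction. Gpx1, not called under any alternative, had a log2 fold change of 0.017 with library size alone and of -0.051 to 0.015 when each library was left out in turn, the positive value being without control replicate 1. Without length scaling, Gpx3 held 1.54% and 48.2% of the glutathione peroxidase sum in the 2 groups, and Sod2 66.9% and 64.5% of the superoxide dismutase sum. Equal replicate numbers showed no sign of pairing: deviations from the group means correlated at 0.0026, -0.0078 and 0.020 for numbers 1 to 3, and not every library correlated best with its own number. With so little spread between replicates, such values cannot exclude that libraries were paired. With a replicate block, 4553 genes rose and 4438 fell, and no member changed its call. Depth did not limit the members, while 3 glutathione peroxidases and 6 oxidase genes were too low to test.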
